A study of Mus musculus with 6 samples.

Results

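The genes described here are 10 genes of triglyceride synthesis and lipid droplet storage, measured in lung fibroblasts with and without the active form of Srebf1. They were chosen by symbol for their role in the pathway and comprised the acyltransferases Gpam, Agpat2, Dgat1 and Dgat2, the lipin Lpin1, the droplet coats Plin2 and Plin3, and the lipases Pnpla2, Pnpla3 and Lipe. All 10 had a row among the 19865 gene symbols of the count tables, and 9 passed the filter on low counts. Pnpla3 did not pass it.

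All cells of both groups were primary lung fibroblasts of C57BL/6 background with a green fluorescent protein transgene under the Col1a2 promoter. Cells of the control group received a retroviral control vector, and cells of the trSrebf1 group received an active form of Srebf1c whose expression depends on doxycycline. Both vectors were tracked by the human receptor hLNGFR. Recipient C57BL/6 mice had been given 2 mg/kg bleomycin, which injures the lung, the cells were placed in the trachea on day 5, doxycycline was given on day 7, and donor cells were recovered on day 10. The sort kept live reporter-positive and hLNGFR-positive cells that lacked CD45, CD31, EpCAM, CD146 and Ter119, so the data describe transferred, transduced cells and not the resident fibroblasts of the lung. Each group had 3 libraries of 3'SAGE-seq, which counts tags near the 3' end of polyadenylated transcripts. Ages are not in the labels. Nor do the labels tie libraries to separate animals or cultures, so the p-values rest on a spread between libraries that may be technical.

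Triglyceride is built on glycerol-3-phosphate in steps. Gpam adds the first fatty acid on the mitochondrial outer membrane, Agpat2 adds the next to give phosphatidic acid, Lpin1 removes the phosphate to give diacylglycerol, and Dgat1 or Dgat2 adds the last fatty acid. The product is stored in droplets coated by perilipins such as Plin2 and Plin3, and is broken down again by Pnpla2 (adipose triglyceride lipase) followed by Lipe (hormone-sensitive lipase). Srebf1 encodes SREBP-1, a transcription factor known for driving fatty acid and triglyceride synthesis genes in liver and fat, often together with the CCAAT-binding factor NF-Y. Fibroblasts that store lipid droplets, called lipofibroblasts, are a known cell type of the lung.

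Library totals ranged from 3675146 to 4688196 counts. Srebf1 itself rose from 7.11 ± 1.72 to 28.2 ± 3.30 CPM (counts scaled to library size; SD, n = 3 each), higher in 3 of 3 trSrebf1 libraries. The lipogenic genes Fasn and Scd1 rose 16.7-fold and 31.5-fold. The deposited symbols do not separate the vector's transcript from the endogenous one. The 3' end of Srebf1 also shares 109 exonic bases with Rai1 on the opposite strand, and the use of strand in counting is not given. Of 8 fibroblast markers, 8 were detected, with Col1a2 and Col1a1 the highest in control. Their summed level was 29888 to 35119 CPM in control and 21020 to 23965 CPM in trSrebf1 libraries. Of the 8 markers, 7, all but Col1a1, were called lower, against 13.0% of all tested genes. Of 8 adipocyte markers, Adipoq, Lep, Plin1, Cfd and Retn had no row, and the remaining 3 summed to at most 1.29 CPM in any library. Macrophage markers summed to at most 4.46 CPM (6 of 10 had a row, not Ptprc or Adgre1) and endothelial markers to at most 2.06 CPM (5 of 7, Pecam1 with 1 count in all). Alveolar type II markers (8 of 9 had a row) summed to 11.3 to 19.8 CPM in control and 10.7 to 26.6 CPM in trSrebf1 libraries, highest in trSrebf1 replicate 2. Of these, Sftpc, Sftpb and Abca3 had enough counts to be tested, and none of these 3 was called by edgeR (unadjusted p = 0.530, 0.553 and 0.935). Immediate early genes, a class known to react to enzymatic digestion of tissue, were also lower in sum in trSrebf1 libraries (21955 to 26392 CPM against 32420 to 39294 CPM). Of these 10 genes, 9 were called lower, against the same 13.0% of all tested genes. The part of these shifts in the results below was not tested. In bulk samples such as these, fewer expressing cells and less RNA per cell cannot be told apart.

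The storage genes were mostly higher in fibroblasts with active Srebf1. Of the 9 tested genes, 7 were called higher (Gpam, Agpat2, Dgat2, Lpin1, Plin2, Pnpla2 and Lipe) and 0 lower by the edgeR quasi-likelihood test at a Benjamini-Hochberg adjusted p under 0.05. Among all 10194 tested genes 17.2% were called higher and 13.0% lower. At an unadjusted p under 0.05 the same 7 were higher and 1, Plin3, was lower, against 21.1% and 18.2% of all tested genes, and the DESeq2 Wald test and limma-voom also called 0 lower. The genes that passed the threshold included enzymes that make triglyceride and both tested lipases that break it down. The median log2 fold change of the 9 was 1.39, against -0.01 for all tested genes. The genes were chosen with earlier results of these data known, so neither the count nor the median is independent evidence. Dgat2, with 2 counts over the control libraries, passed the filter on low counts only through the trSrebf1 libraries, where it is high. Its call and its part in the count and median are thus not independent of that filter. In control, Gpam (9 to 14 counts) and Lpin1 (8 to 16) each fell below the filter's minimum count of 10 in a library. The filter asks for as many passing libraries as a group holds. Gpam and Lpin1 therefore also passed it only with the trSrebf1 libraries, where they are high. Their calls and their part in the count and median are likewise not independent of that filter. The control and trSrebf1 libraries did not overlap for 7 of the 9 tested genes in the upward and 1 in the downward direction, against 23.1% and 20.2% of all tested genes. The untested Pnpla3 also lay apart, upward, and the groups overlapped for Dgat1.

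**Figure D1:**
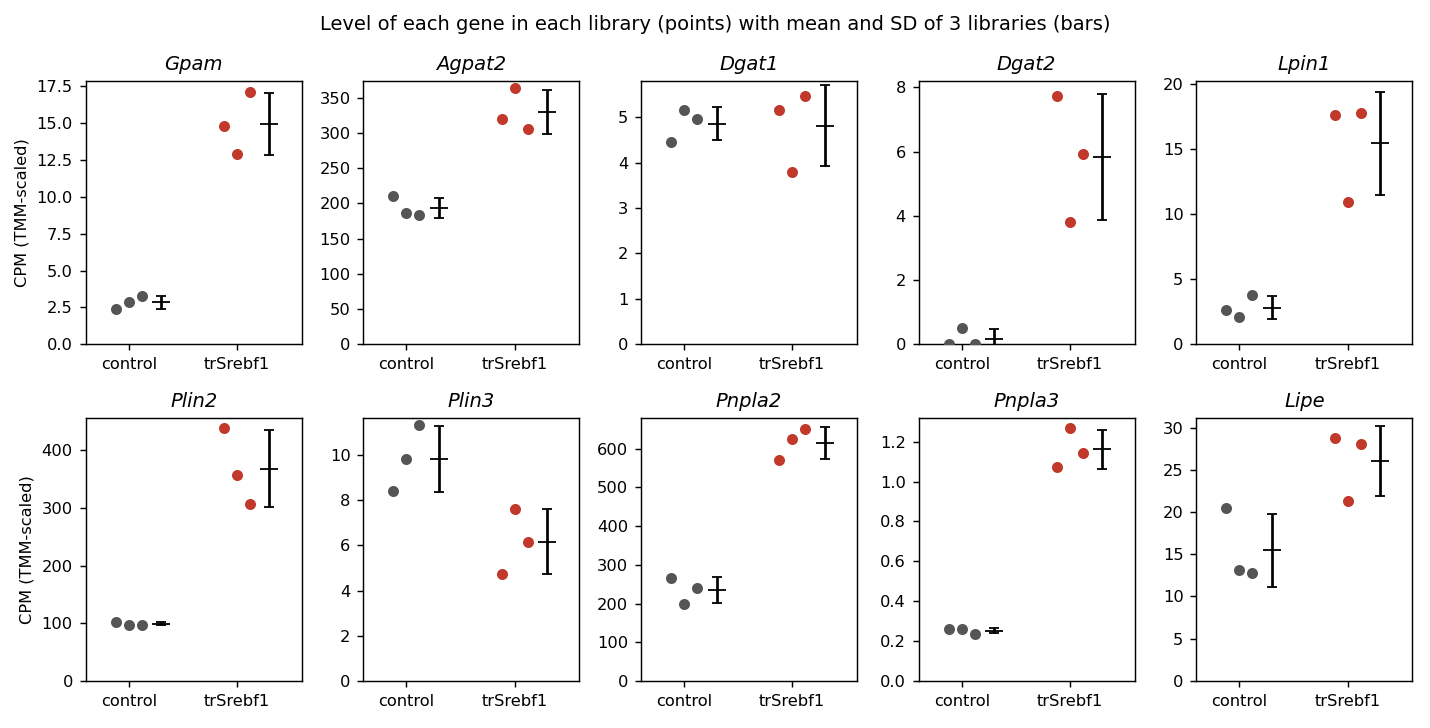
Level of each of the 10 genes in CPM over TMM-scaled library sizes (vertical axes, each from 0), in the 3 control (grey) and 3 trSrebf1 (red) libraries, with the mean and SD beside the points. All trSrebf1 points lie above all control points for 8 genes (7 tested ones and Pnpla3; 23.1% of all tested genes), below them for Plin3 (20.2%), and among them for Dgat1.

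Among the tested genes of the entry step, Gpam rose, while the more abundant Agpat6 (mean 339 CPM in control) was not called. Agpat9, also of that step, was called lower. Gpam (chromosome 19, 55067268 to 55127238, minus strand) stood at 2.36, 2.84 and 3.30 CPM in control replicates 1 to 3 and at 14.8, 12.9 and 17.1 CPM in trSrebf1 replicates 1 to 3. Every trSrebf1 library was thus several times above the highest control library, on 9 to 14 raw counts in control and 51 to 75 in trSrebf1 libraries. The rise was 5.22-fold (log2 fold change 2.39, SE 0.29, adjusted p = 5.42e-06), larger than that of 97.2% of all tested genes. The sequence upstream of its first RefSeq start is shown because it was the one window of these genes that held the core of a sterol regulatory element, TCACCCCA, as well as an NF-Y box. Capitals mark both, the NF-Y box being read on the opposite strand as ATTGG.

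Gpam, chr19:55127239-55127488 (mm10, minus strand, 250 bases up to the start, from RefSeq on GRCm38.p6): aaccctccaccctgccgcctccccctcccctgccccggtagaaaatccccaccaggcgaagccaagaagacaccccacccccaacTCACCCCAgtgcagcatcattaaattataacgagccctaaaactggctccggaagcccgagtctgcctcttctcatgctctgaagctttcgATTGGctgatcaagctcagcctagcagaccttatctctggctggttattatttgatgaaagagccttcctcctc

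Agpat2 (chromosome 2, 26593057 to 26604417, minus strand), whose loss in people causes a congenital lack of fat tissue, was measured on 722 to 1484 counts per library. It stood at 210, 186 and 184 CPM in control and at 319, 364 and 305 CPM in trSrebf1 libraries. The groups lay well apart, but the rise was modest, 1.71-fold (95% interval 1.45 to 2.01, log2 fold change 0.77, SE 0.11, adjusted p = 3.49e-05). The 3' end of Agpat2 shares 64 exonic bases with Egfl7 on the opposite strand, and the use of strand in counting is not given in the sources used here. The row of Egfl7 held 7 counts over the control and 86 over the trSrebf1 libraries, few beside the 2301 and 4257 counts of Agpat2. That row cannot show how many tags of Egfl7 were counted as Agpat2, or how many shared tags were left out.

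Lpin1 (chromosome 12, 16535669 to 16610966, minus strand), the phosphatidate phosphatase that also acts as a transcriptional coactivator, changed about as much as Gpam. Its level was 2.62, 2.06 and 3.77 CPM in control and 17.6, 10.9 and 17.8 CPM in trSrebf1 libraries. The lowest trSrebf1 value, that of replicate 2, was still above all 3 controls. The rise was 5.41-fold (95% interval 3.39 to 8.65, log2 fold change 2.44, SE 0.32, adjusted p = 1.32e-05).

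Dgat1 and Dgat2 catalyse the same last step, although they belong to unrelated protein families. Dgat1 (chromosome 15, 76502015 to 76511953, minus strand) stood at 4.46, 5.16 and 4.95 CPM in control and at 5.16, 3.81 and 5.48 CPM in trSrebf1 libraries. These ranges overlapped. Its log2 fold change was -0.01 (SE 0.33, adjusted p = 0.991), with a 95% interval from 0.616-fold to 1.61-fold, so a change within those limits could not be seen at 15 to 24 counts per library. Dgat2 (chromosome 7, 99153658 to 99182719, minus strand) had 0, 2 and 0 counts in the control and 36, 15 and 26 counts in the trSrebf1 libraries. In CPM this was 0, 0.516 and 0 against 7.74, 3.81 and 5.94, so control replicate 2 was the one control library with any Dgat2 tag. The ratio of pooled, size-scaled counts was 35.4 with an exact 95% interval of 9.48 to 298, which covers counting error only. The fitted log2 fold change was 4.90 (SE 0.72, adjusted p = 4.42e-05), its size depending on the few control counts. Without control replicate 2, which held both control counts, 0 control counts were left. Against an assumed 3 counts over the control group, the size-scaled ratio was then 15.9. That value takes no account of counting error in the trSrebf1 libraries, so it is not a lower limit.

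The droplet coats did not move together. Plin2 (chromosome 4, 86648386 to 86670060, minus strand), the coat found in most cells that hold droplets and one that is degraded when droplets are absent, stood at 103, 97.8 and 97.9 CPM in control and at 440, 358 and 307 CPM in trSrebf1 libraries. The control libraries differed by little, and trSrebf1 replicate 1 was the highest of its group. Plin2 rose 3.70-fold (95% interval 3.06 to 4.47, log2 fold change 1.89, SE 0.13, adjusted p = 4.76e-09). The 3' end of a Plin2 transcript matched the annotated gene Gm12551 at 93.9% identity over 280 bases, and that gene had no row, so where tags from such a copy were counted is not known.

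Plin3 (chromosome 17, 56277476 to 56292873, minus strand), a coat that moves from the cytosol onto newly formed droplets, stood at 8.39, 9.80 and 11.3 CPM in control and at 4.73, 7.61 and 6.17 CPM in trSrebf1 libraries. The trSrebf1 values were all below the control values by a narrow margin. The log2 fold change of -0.68 (SE 0.28) did not pass the threshold (adjusted p = 0.0792), and its unadjusted 95% interval ran from 0.413-fold to 0.941-fold. With upper-quartile in place of TMM scaling it did pass (log2 fold change -0.77, adjusted p = 0.0478). Its adjusted p ran from 0.0478 to 0.259 across alternative settings.

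The lipases that passed the filter were both higher. Pnpla2 (chromosome 7, 141455198 to 141460743, plus strand), which removes the first fatty acid from stored triglyceride, stood at 266, 199 and 240 CPM in control and at 570, 626 and 651 CPM in trSrebf1 libraries. The lowest trSrebf1 library was more than 2 times as high as the highest control library. The rise was 2.62-fold (log2 fold change 1.39, 95% interval 1.14 to 1.64, SE 0.12, adjusted p = 8.36e-08). Lipe (chromosome 7, 25379527 to 25398710, minus strand), which acts on the diacylglycerol that results, stood at 20.5, 13.2 and 12.7 CPM in control and at 28.8, 21.3 and 28.1 CPM in trSrebf1 libraries. Control replicate 1 and trSrebf1 replicate 2 nearly met. Its rise of 1.70-fold (log2 fold change 0.76, SE 0.22, adjusted p = 0.0127) was not called without control replicate 2 (adjusted p = 0.0645), control replicate 3 (0.0709) or trSrebf1 replicate 1 (0.0587). Across alternative settings its adjusted p ran from 0.00169 to 0.0709.

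Pnpla3 (chromosome 15, 84167837 to 84187236, plus strand), a droplet protein related to Pnpla2 and a known SREBP-1 target in liver, had 1 count in each control and 5 counts in each trSrebf1 library. It was too low to be tested. The ratio of pooled, size-scaled counts was 4.60 with an exact 95% interval of 1.30 to 24.8, again for counting error only. With no filter on low counts its log2 fold change was 2.09 (adjusted p = 0.207). The last 300 bases of its transcripts include a stretch that matched transcripts of 592 other genes at 90% identity or more, so even these few counts are uncertain in origin.

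The 8 genes with a promoter window in the RefSeq table (Dgat1 and Dgat2 had none) gave 10 windows of 250 bases before to 50 after a start. They were searched on both strands for the sterol element TCACNCCAC, its core TCACCCCA, the NF-Y box CCAAT, the E-box CACGTG and the GC box GGGCGG. The core was added after the longer element gave no match, and it overlaps that element. The longer element was in 0 of the 10 windows and in 1.24% of all 32851 windows, and the core in 1, that of Gpam, against 1.56%. An NF-Y box was in 4 windows, those of Gpam, Plin2, Plin3 and Pnpla3, against 37.4% of all windows, a share near the background. It began 74, 73, 75 and 99 bases before the start in that order. E-boxes were in the windows of Plin2 and Lipe (7.15% of all windows) and GC boxes in 7 windows (35.7%). Plin2 and Plin3 are shown together with Pnpla3 because they hold the NF-Y box at a like distance although Plin2 was called higher and Plin3 was not. Capitals mark that box, and each run gives the 120 bases before the start (mm10, RefSeq).

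Plin2, chr4:86670060-86670179, minus strand: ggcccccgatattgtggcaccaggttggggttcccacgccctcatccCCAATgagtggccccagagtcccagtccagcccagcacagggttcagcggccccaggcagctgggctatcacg

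Plin3, chr17:56290512-56290631, minus strand: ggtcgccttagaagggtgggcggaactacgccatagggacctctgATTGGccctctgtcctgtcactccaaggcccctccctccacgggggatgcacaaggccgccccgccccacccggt

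Pnpla3, chr15:84167696-84167815, plus strand: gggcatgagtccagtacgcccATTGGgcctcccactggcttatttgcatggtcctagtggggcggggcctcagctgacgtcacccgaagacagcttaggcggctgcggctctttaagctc

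**Figure D2:**
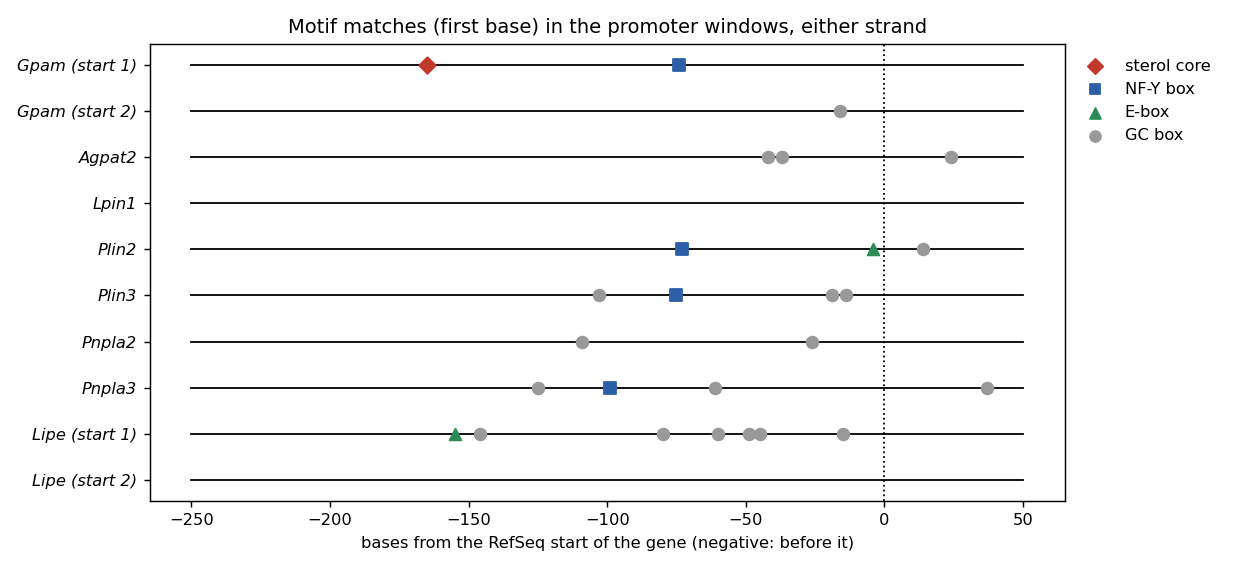
Motif matches on either strand in the promoter windows of 8 genes (rows, 2 starts each for Gpam and Lipe), by the distance of the first base from the RefSeq start in bases. The sterol core appears in the first window of Gpam, and NF-Y boxes (blue) lie 73 to 99 bases before the start in 4 windows.

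Related genes were compared within each library, where library size cancels. The log2 ratio of Dgat2 to Dgat1 counts, with 0.5 added to each, went from -4.53 ± 1.30 to 0.23 ± 0.30 (SD, n = 3 each), a difference of 4.76. Since control replicates 1 and 3 had 0 Dgat2 counts, the size depends on the count added and on control replicate 2: the difference was 4.04 with 1 added and 5.51 without that library. The ratio of Plin2 to Plin3 went from 3.33 ± 0.25 to 5.88 ± 0.54, a difference of 2.55, and that of Pnpla2 to Lipe from 3.94 ± 0.27 to 4.57 ± 0.29, a difference of 0.63. For these 3 pairs the 2 groups did not overlap, and the exact two-sided permutation p was 0.1, the smallest that 3 against 3 libraries allow (0.133 adjusted over the 4 pairs). Each of these pairs holds a gene whose groups lay apart by itself. Of all tested single genes, 23.1% lay apart upward and 20.2% downward, and no such share was computed for pairs. The ratio of Pnpla3 to Pnpla2, which rests on 1 to 5 Pnpla3 counts per library, was -9.27 ± 0.23 in control and -8.91 ± 0.10 in trSrebf1 libraries, and the groups overlapped (exact permutation p = 0.2, adjusted p = 0.2).

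**Figure D3:**
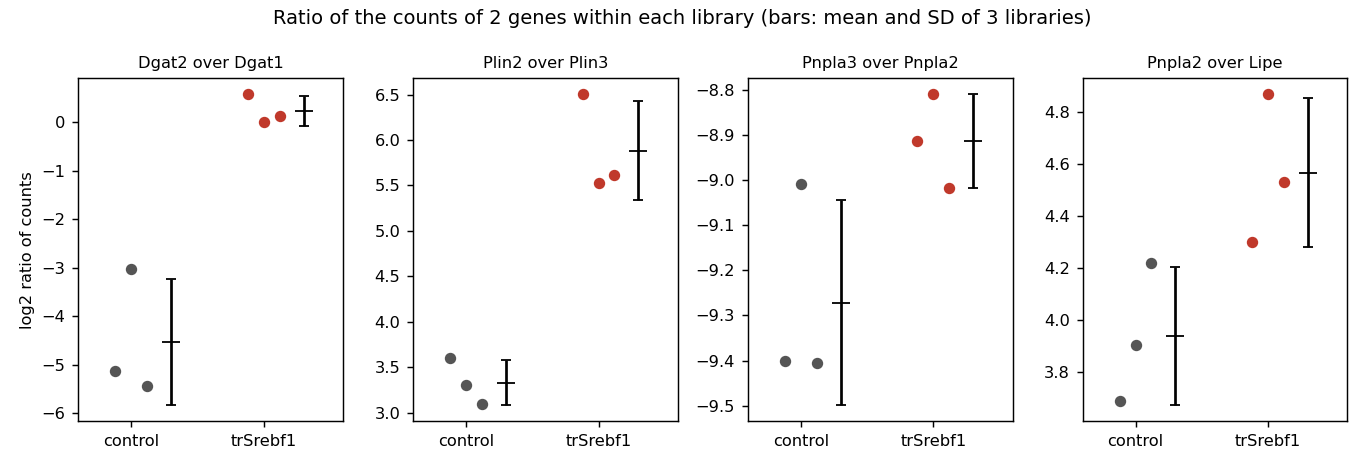
Log2 ratio of the counts of 2 genes (vertical axes, not from 0) within each control (grey) and trSrebf1 (red) library, with the mean and SD of 3 libraries. The groups stand apart for Dgat2 over Dgat1, Plin2 over Plin3 and Pnpla2 over Lipe, and overlap for Pnpla3 over Pnpla2.

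Within the trSrebf1 group the genes did not rank the libraries alike. Replicate 2 was the lowest of the group for 5 of the 10 genes (Gpam, Dgat1, Dgat2, Lpin1 and Lipe) and the highest for 3 (Agpat2, Plin3 and Pnpla3). Pnpla3 had 5 counts in each trSrebf1 library, so its rank follows library size only. Plin2 was highest in replicate 1, where Plin3 was lowest. The coefficient of variation among trSrebf1 libraries was 6.75% for Pnpla2 and 9.37% for Agpat2, each with at least 1337 counts per such library, and 25.5% for Lpin1 and 33.8% for Dgat2, each with at most 82.

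Other genes of the same pathway were read from the same fit in 3 lists. Of 58 symbols, 52 had a row and 34 were tested, of which 8 were called higher and 4 lower, with a median log2 fold change of 0.11. Those shares are near the 17.2% and 13.0% of all genes. Among the called genes, Abhd5, Abhd6 and Agpat9 passed the filter on low counts only with the group where they are high.

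Among other synthesis enzymes 2 of 14 tested genes were called higher and 3 lower, against 17.2% and 13.0% of all tested genes. The acyltransferases Agpat4 and Agpat3, relatives of Agpat2, rose from 236 ± 5.63 to 660 ± 23.7 CPM and from 36.7 ± 1.47 to 72.5 ± 1.91 CPM (SD, n = 3 each). Agpat9, listed as Gpat3 in GENCODE and a relative of Gpam in the endoplasmic reticulum, went the other way, from 6.40 ± 0.909 to 1.44 ± 0.587 CPM (log2 fold change -2.11, SE 0.41, adjusted p = 6.87e-04). Agpat6 (Gpat4), which catalyses the same first step, was at 339 ± 9.61 and 327 ± 20.0 CPM (adjusted p = 0.745, 95% interval of the log2 fold change -0.27 to 0.16). The genes of the glycerol-3-phosphate acyltransferase step therefore included 1 called higher, 1 called lower and 1 not called. Agpat9, with 8, 3 and 8 counts in trSrebf1 libraries, passed the filter on low counts only through the control libraries, where it is high. Gpam passed it only with the trSrebf1 libraries. Neither of these calls is thus independent of that filter. The lipid phosphatase Ppap2b (Plpp3) fell from 1413, 725 and 694 CPM to 313, 361 and 354 CPM, with control replicate 1 far above the others (log2 fold change -1.46, SE 0.30, adjusted p = 0.0149). That call was lost without trSrebf1 replicate 1 (adjusted p = 0.0584) or replicate 3 (0.0701), the adjusted p running from 1.81e-07 to 0.0701, and the log2 fold change was -1.05 without control replicate 1. Its relative Ppap2c (Plpp2) fell by 0.83 (SE 0.27, adjusted p = 0.0286), a call lost with DESeq2 (0.0614) and without control replicate 1 (0.115) or either of trSrebf1 replicates 1 (0.0934) and 2 (0.0823), its adjusted p running from 0.0161 to 0.115. The remaining relative, Ppap2a, was at 212 ± 38.4 and 235 ± 15.1 CPM (adjusted p = 0.425, and 0.0454 without control replicate 1, in a range to 0.850).

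Among other droplet coats and assembly genes 2 of 9 were called higher and 0 lower by edgeR, against 17.2% and 13.0% of all tested genes. At an unadjusted p under 0.05, 0 were lower (18.2% of all tested genes), and DESeq2 or limma-voom called 0 lower. Acsl3, an acyl-CoA synthetase found on nascent droplets, rose from 2.88, 3.87 and 4.48 CPM to 45.6, 32.2 and 32.9 CPM (log2 fold change 3.29, SE 0.25, adjusted p = 1.65e-08). This was a larger fitted change than that of Plin2. Faf2, which removes proteins from droplets, rose by 0.52 on the log2 scale (SE 0.17, adjusted p = 0.0306), but the call was lost when control replicate 1 (adjusted p = 0.105) or 3 (0.0785), or trSrebf1 replicate 1 (0.102) or 2 (0.0778), was left out, and with upper-quartile (0.0627) or total-count scaling (0.0790). The lowest adjusted p over the alternatives was 0.0218. The most abundant uncalled genes were Aup1, a droplet protein, at 32.3 ± 2.73 and 38.9 ± 5.69 CPM (adjusted p = 0.257), and 1110057K04Rik (Ldah), a droplet-associated hydrolase, at 19.3 ± 3.41 and 20.3 ± 0.857 CPM (adjusted p = 0.825). The seipin gene Bscl2, needed for droplet formation, was not called (adjusted p = 0.437). The coats Plin1 and Plin5, known from fat and oxidative tissues, had no row, Plin4 had 2 counts in all libraries together, and Cidec had 1.

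Among other lipases and lipase regulators 4 of 11 were called higher and 1 lower, against 17.2% and 13.0% of all tested genes. Of those called higher, Abhd5 had 9, 13 and 9 counts in control and Abhd6 had 6, 14 and 18. Both passed the filter on low counts only with the trSrebf1 libraries, where they are high. Their calls and their part in the count are thus not independent of that filter. A coactivator and an inhibitor of Pnpla2 both rose. Abhd5, the coactivator, went from 2.36, 3.35 and 2.12 CPM to 6.45, 5.84 and 6.85 CPM (log2 fold change 1.29, SE 0.35, adjusted p = 0.00963), and shares 950 exonic bases with an antisense gene at its 3' end. G0s2, the inhibitor, went from 83.1, 79.7 and 97.2 CPM to 146, 156 and 127 CPM (log2 fold change 0.72, SE 0.13, adjusted p = 2.55e-04). For both, all trSrebf1 libraries were above all control libraries. Mgll, which completes the breakdown by splitting monoacylglycerol, fell from 23.3 ± 1.51 to 12.7 ± 1.90 CPM (log2 fold change -0.88, SE 0.20, adjusted p = 0.00261). The genes of the successive lipolytic steps, Pnpla2, Lipe and Mgll, therefore had 2 rises and 1 fall. Prkaca, a catalytic subunit of the kinase that activates lipolysis, rose by 0.41 (SE 0.11, adjusted p = 0.00877). Abhd6, another monoacylglycerol lipase, was high in trSrebf1 replicate 1 (11.4 CPM against 5.58 and 5.02 in replicates 2 and 3). Its log2 fold change of 1.21 (SE 0.41, adjusted p = 0.0343) was 0.74 without that library (adjusted p = 0.264). The call was also lost without control replicate 1 (0.112) or control replicate 2 (0.0671), with total counts (0.0535), limma-voom (0.0530) and a fit with replicate number as a block (0.0837). Its lowest adjusted p over the alternatives was 0.00848. The lysosomal lipase Lipa and the secreted lipase Lpl were not called (adjusted p = 0.508 and 0.644).

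**Figure D4:**
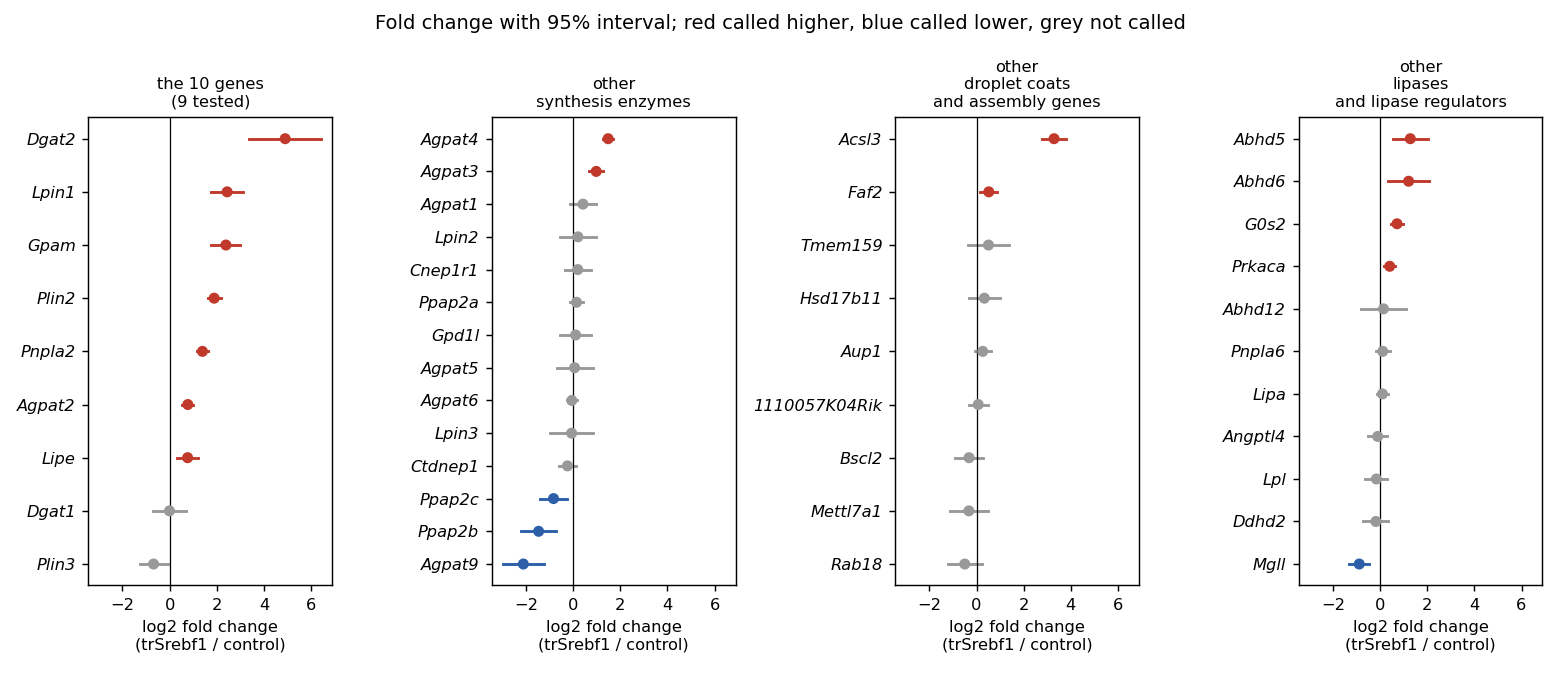
Log2 fold change of trSrebf1 over control (horizontal axes) with its unadjusted 95% interval for the 9 tested genes and the tested genes of 3 further lists, coloured by the call at an adjusted p under 0.05. Red genes were called higher (7 of 9, 2 of 14, 2 of 9 and 4 of 11 from left to right; 17.2% of all tested genes), blue ones lower, and grey ones were not called.

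For Gpam and Plin2 the genes with the most similar profile over the 6 libraries were sought among 3960 genes with a mean of 20 CPM or more, by the root mean square difference of centred log2 CPM. The 3 nearest to Gpam were Abr (0.061), Jup (0.113) and Ninj1 (0.133). The 3 nearest to Plin2 were Ptgs1 (0.101), Mid1ip1 (0.106) and Pex16 (0.111). Over 6 libraries in 2 groups this measure is small for any gene with a like difference between the groups.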

How the data were processed

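Counts per gene symbol, 1 deposited table per library, were made by the authors from 3'SAGE-seq of polyA RNA from 10000 sorted cells, per the labels' protocols. Bowtie2 2.2.5 and mm10 are named, without a role, per the submitters' processing notes. No counter, annotation or strand setting is given in the sources used here. The chi-square statistic per degree of freedom between libraries of a group was 4.91 to 9.23, above counting noise, so none was treated as a copy. Exact intervals cover counting error only.

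The whole table was fitted with edgeR 4.0.16 in R 4.3.3 (TMM, filterByExpr with minimum count 10 and total 15, robust glmQLFit, glmQLFTest, group only), and p-values were adjusted over 10194 genes. The procedure was tested on simulated data. CPM use TMM-scaled sizes. The SE is the log2 fold change over the root of F. Alternatives used upper-quartile or total counts, DESeq2 1.42.0, limma-voom (limma 3.58.1), no filter, 5 CPM in 3 libraries, Ctsd left out, the replicate number as a block, and each library left out. Coordinates and exon overlaps come from GENCODE vM21 (GRCm38, the assembly of mm10). Transcript 3' ends were compared with BLAST 2.17.0.

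The members and lists were chosen with earlier results of these data known. Named genes were all 10 members, Srebf1, Fasn and Scd1, the defining markers, each called gene of the 3 further lists with the 2 most abundant of the rest, and the profile neighbours. Bscl2, Plin4, Cidec, Egfl7, Lipg and Hilpda were added after their values were seen.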

Additional observations from a re-analysis of the deposited data

How the results depend on the processing

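Over 14 alternatives 6 or 7 of the 10 genes were called higher: 6 where leaving out a library lost Lipe, and 6 where a minimum of 5 CPM in 3 libraries left Dgat2 untested. The number called lower was 0 in all but one, 1 (Plin3) with upper-quartile factors. Over all genes 1535 to 1977 were called higher and 1060 to 1649 lower. Gpam, Agpat2, Dgat2, Lpin1, Plin2 and Pnpla2 were called in every alternative that tested them, and Dgat1 in none. For the other synthesis enzymes, 1 to 3 were called lower when 1 library was left out, lowest without trSrebf1 replicate 1. For the other droplet genes, 1 was called higher under upper-quartile and 1 under total-count scaling, and 1 to 2 when 1 library was left out. Same-numbered libraries correlated in their deviations from the group means at -0.12 to 0.00257, so the numbers were not taken as pairs. The block by replicate number gave 1646 genes higher and 1174 lower, 7 and 0 of the 10 genes, and lost the call of Abhd6 (adjusted p = 0.0837) and of no other named gene. Precision was limited by depth for Dgat1, Dgat2 and Pnpla3.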

Other observations

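Egfl7, which lies on the opposite strand with its 3' end over that of Agpat2, had 2, 3 and 2 counts in control and 32, 29 and 25 counts in trSrebf1 libraries, in cells sorted as CD31-negative with endothelial markers of at most 2.06 CPM in sum. Whether the tags of the row come from Egfl7 or Agpat2 transcripts was not tested. Lipg, the endothelial lipase, was too low to be tested, with 5 counts over the control and 31 over the trSrebf1 libraries, of which trSrebf1 replicates 1 to 3 held 1, 16 and 14. Hilpda, an inhibitor of Pnpla2 known as a hypoxia-inducible droplet protein, had 2, 3 and 2 counts in control and 0 counts in the 3 trSrebf1 libraries.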
